A study of Rattus norvegicus with 24 samples.

Results

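The 9 inward rectifier potassium channel genes Kcnj2, Kcnj3, Kcnj4, Kcnj6, Kcnj9, Kcnj10, Kcnj11, Kcnj12 and Kcnj16 were taken by gene name from the 32545 genes of the table. Kcnj3, Kcnj6 and Kcnj9, the opioid-coupled GIRK subunits, were described apart from the other 6. RNA-seq values of the nucleus accumbens (NAc), a ventral striatal region of reward learning, were held for adult male Sprague Dawley rats in 24 libraries, 4 for each of 6 groups. All rats were 8 weeks old when they arrived, and no group carried a genetic change. In the injection experiment, every rat first received 5 intraperitoneal injections over 2 weeks, of saline or of 250 µg/kg lipopolysaccharide (LPS), a bacterial cell wall component that sets off an immune response. Every rat then received saline or heroin on 5 days, the heroin doses rising from 1 to 5 mg/kg, and was killed 1 h after the last injection. The groups were Saline-Saline (saline at both stages), LPS-Saline, Saline-Heroin and LPS-Heroin. The labels place 1 week between both stages, whereas the methods of the study give a shorter gap. In the self-administration experiment, catheterized rats took saline (Saline-SA) or 0.075 mg/kg heroin per infusion (Heroin-SA) for 6 h a day in 10 daily sessions and were killed right after the last. The labels give 4 biological replicates per group, while the methods of the study state a larger number sequenced.

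Inward rectifiers pass potassium more readily into the cell than out of it and hold the membrane near the potassium equilibrium potential. GIRK channels, built from the products of Kcnj3 (GIRK1), Kcnj6 (GIRK2), Kcnj9 (GIRK3) and Kcnj5 (GIRK4), open when Gi/o-coupled receptors such as the mu opioid, D2 dopamine and GABA-B receptors release G protein beta-gamma subunits, and so carry part of the acute inhibition that opioids exert on neurons. Kcnj2, Kcnj12 and Kcnj4 encode constitutively open channels (Kir2.1, Kir2.2 and Kir2.3) that set the negative resting potential of striatal medium spiny neurons. Kcnj11 encodes the Kir6.2 pore of ATP-sensitive channels, and Kcnj10 and Kcnj16 encode Kir4.1 and Kir5.1, which pair in glia and take up potassium from around neurons.

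The deposited values are FPKM, fragments scaled by gene length and by the mapped reads of the library. The libraries held 12312878 to 18850240 reads on genes. Markers of medium spiny neurons were present in every library, their 12 genes summing to 1273 to 3338 FPKM. Markers of other tissue varied: the 9 cortical glutamatergic markers summed to 316.5 to 985.2 FPKM, and the 6 choroid plexus markers reached 333.5 FPKM in Saline-Saline replicate 1 against at most 32.5 FPKM elsewhere. Mitochondrial reads took 6.82% to 9.10% of the injection libraries and 10.0% to 15.9% of the self-administration libraries. In such tissue samples, fewer cells of a type and less RNA per cell cannot be told apart.

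All 9 genes had reads in all 24 libraries, from 7 reads for Kcnj6 in 1 library to 3055 for Kcnj4. In the rn6 build, Kcnj3 (ENSRNOG00000005369) lies on chromosome 3 at 41019898 to 41181070, Kcnj6 (ENSRNOG00000001658) on chromosome 11 at 35024196 to 35099383 and Kcnj9 (ENSRNOG00000007645) on chromosome 13 at 90703036 to 90710287. Kcnj10 (ENSRNOG00000007705, chromosome 13 at 90723092 to 90752581) is the next gene to Kcnj9, 12804 bases away on the opposite strand, with no listed gene between them. Kcnj16 (ENSRNOG00000004713, chromosome 10 at 99388130 to 99389898) and Kcnj2 (ENSRNOG00000004720, chromosome 10 at 99437436 to 99439114) are likewise neighbours on the same strand, 47537 bases apart. Kcnj12 (ENSRNOG00000002303) lies on chromosome 10 at 47281786 to 47341411, Kcnj4 (ENSRNOG00000013869) on chromosome 7 at 120717375 to 120744602 and Kcnj11 (ENSRNOG00000021128) on chromosome 1 at 102103094 to 102106127. None of the 9 genes overlaps another listed gene on either strand, so their reads are not shared with an antisense partner.

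RefSeq start-site windows, 250 bases before to 50 after the start, were found for 6 of the 9 genes in build GRCr8, which is not the build of the deposited values: Kcnj2, Kcnj4, Kcnj6, Kcnj9, Kcnj10 and Kcnj16. Kcnj3, Kcnj11 and Kcnj12 had no entry. The 3 windows below belong to the genes whose LPS-Heroin and Saline-Saline values did not overlap, and capitals mark matches on either strand to the cAMP response element half-site TGACG or to the AP-1 motif TGANTCA. The Kcnj4 window is chr7:112954498-112954797 on the minus strand, that of Kcnj9 is chr13:87320244-87320543 on the minus strand and that of Kcnj16 is chr10:96517074-96517373 on the plus strand.
Kcnj4: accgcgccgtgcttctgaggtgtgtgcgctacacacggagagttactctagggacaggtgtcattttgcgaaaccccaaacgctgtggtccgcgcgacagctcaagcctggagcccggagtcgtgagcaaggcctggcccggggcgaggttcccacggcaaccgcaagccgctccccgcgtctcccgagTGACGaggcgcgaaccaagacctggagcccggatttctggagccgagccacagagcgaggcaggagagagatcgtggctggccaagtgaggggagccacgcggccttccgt
Kcnj9: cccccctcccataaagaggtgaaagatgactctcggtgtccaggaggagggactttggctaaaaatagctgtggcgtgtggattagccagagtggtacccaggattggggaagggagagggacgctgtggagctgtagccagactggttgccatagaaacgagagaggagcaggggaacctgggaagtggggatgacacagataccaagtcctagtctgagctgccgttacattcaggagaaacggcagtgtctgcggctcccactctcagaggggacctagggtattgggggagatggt
Kcnj16: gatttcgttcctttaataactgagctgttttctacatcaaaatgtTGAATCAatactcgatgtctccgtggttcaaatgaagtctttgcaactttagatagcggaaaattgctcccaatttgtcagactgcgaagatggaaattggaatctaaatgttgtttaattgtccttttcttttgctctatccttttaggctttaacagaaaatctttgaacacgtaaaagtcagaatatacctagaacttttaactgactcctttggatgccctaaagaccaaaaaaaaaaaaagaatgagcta
These starts differed in base composition. The Kcnj4 window holds 30 CpG dinucleotides and 65.7% G or C, that of Kcnj9 holds 7 and 56.0%, and that of Kcnj16 holds 6 and 34.0%, against medians of 7 and 51.7% over 33469 windows. Kcnj4 has 1 half-site match, its first base 61 upstream of the start, and Kcnj16 has 1 AP-1 match, its first base 205 upstream, while the Kcnj9 window and the other windows found (Kcnj2, Kcnj6 and Kcnj10) hold neither. The half-site occurs in 21.2% and the AP-1 motif in 7.33% of all windows. The full element TGACGTCA, which contains the half-site and occurs in 1.83%, matched none of the 6.

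Kcnj4 was the most abundant member, with a mean of 49.5 FPKM over the 24 libraries, and Kcnj6 the least, with 2.50 FPKM, so that their levels differed 19.8-fold. Between them came Kcnj10 (23.6 FPKM), Kcnj9 (22.8), Kcnj11 (12.9), Kcnj3 (10.4), Kcnj2 (7.93), Kcnj12 (6.42) and Kcnj16 (5.69). These levels are per kilobase of the listed gene length, which ran from 1420 bases for Kcnj10 to 3104 for Kcnj6. In Saline-Saline, Kcnj4 lay above Kcnj10, Kcnj10 above Kcnj9 and Kcnj9 above Kcnj11 in all 4 libraries with no overlap of their ranges, whereas Kcnj11, Kcnj16 and Kcnj3 each overlapped the next gene in the order. The order was not the same in every group: Kcnj16 ranked between Kcnj11 and Kcnj3 in Saline-Saline, with 10.1 ± 4.08 FPKM (SD, n = 4), and last in LPS-Heroin, with 3.28 ± 1.83 FPKM. The spread among replicates differed between the genes. The coefficient of variation within groups had a median of 63.0% for Kcnj16, 39.5% for Kcnj6 and 29.5% for Kcnj3, against 11.2% for Kcnj11, 12.6% for Kcnj12 and 12.9% for Kcnj4.

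Among the GIRK subunits, Kcnj9 gave most of the transcript in every library. Its share of the summed FPKM of the 3 genes was 64.8% ± 9.56 in Saline-Saline and 63.9% ± 7.31 in LPS-Saline, 59.9% ± 2.44 after heroin alone, 59.5% ± 3.88 in LPS-Heroin, 75.0% ± 5.56 in Saline-SA and 70.9% ± 1.66 in Heroin-SA (SD, n = 4 each). Kcnj6 gave the smallest share, 7.23% to 8.63% in the means of the injection groups and 3.07% to 3.63% in those of the self-administration groups. The summed level was 32.0 ± 7.70 FPKM in Saline-Saline, 41.9 ± 12.5 FPKM in LPS-Saline, 41.3 ± 6.88 FPKM after heroin alone and 47.8 ± 2.2 FPKM in LPS-Heroin, and 23.0 ± 4.82 in Saline-SA and 28.0 ± 7.54 in Heroin-SA. The plot of the GIRK genes by library shows that the 4 LPS-Heroin sums, 45.5 to 50.1 FPKM, all lay above the Saline-Saline sums, 21.8 to 40.5 FPKM.

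**Figure D1:**
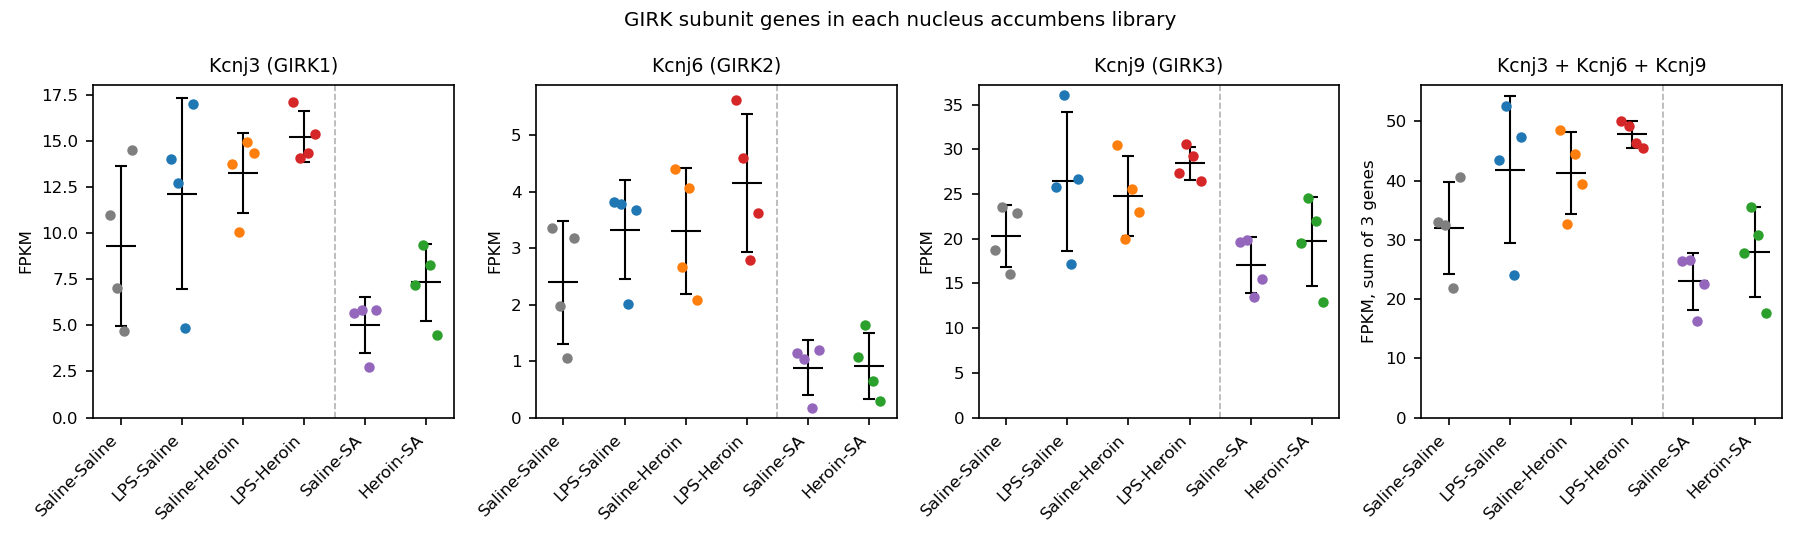
FPKM of Kcnj3, Kcnj6, Kcnj9 and their sum in each library (points), by treatment group along the horizontal axis, with the mean and SD of 4 libraries (black bars) and a dashed line between the injection and self-administration experiments. The LPS-Heroin points of Kcnj9, 26.5 to 30.6 FPKM, sit above all Saline-Saline points, 16.1 to 23.5 FPKM, and replicate 3 of Saline-Saline, LPS-Saline and Saline-SA is the lowest of its group in all 3 genes.

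The comparison of LPS-Heroin with Saline-Saline sets an immune history followed by heroin, 1 h after the last dose, against saline at both stages. It held most of the differences among these genes. All 3 GIRK genes and Kcnj4 were higher and Kcnj16 lower by the limits that the study set for its pattern analyses, a limma p not above 0.05 before adjustment and a change of 1.3-fold or more either way, here on log2(FPKM + 0.1). Genes past both limits are called DEGs, and 5 of the 9 members were DEGs (4 higher and 1 lower) where 5.43% of the 15134 genes tested were. The median log2 fold change was 0.83 for the GIRK genes and 0.07 for the other 6 members, against 0.00 over all genes. No gene (0 in each of the 10 comparisons) reached an adjusted p below 0.05 in limma with Benjamini-Hochberg adjustment over all genes tested, while 607 to 1725 genes had an unadjusted p of at most 0.05.

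Kcnj9 differed with the least scatter of the GIRK genes. Its values were 18.7, 23.5, 16.1 and 22.9 FPKM in Saline-Saline and 27.3, 30.6, 29.3 and 26.5 FPKM in LPS-Heroin, and the groups did not overlap. The log2 fold change was 0.50 with an SE of 0.12 (limma adjusted p = 0.202), and an exact permutation of the 8 libraries gave a two-sided p of 0.029, the smallest that 4 against 4 allows. Groups of 4 without overlap always give this permutation p, so it restates the lack of overlap, for Kcnj9 and for the genes below. The difference stayed past the DEG thresholds whichever library was left out, with log2 fold changes of 0.39 to 0.57.

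Kcnj3, which carries the GIRK1 subunit of most neuronal GIRK channels, was more scattered. Its Saline-Saline values were 11.0, 7.05, 4.67 and 14.5 FPKM, and its LPS-Heroin values were 17.1, 14.1, 14.3 and 15.4 FPKM, so Saline-Saline replicate 4 lay within the LPS-Heroin range and the other 3 below it. LPS-Heroin was higher by 0.83 on the log2 scale with an SE of 0.30 (limma adjusted p = 0.344; exact permutation p = 0.0857). It was no longer a DEG without Saline-Saline replicate 2, at a log2 fold change of 0.74, or without LPS-Heroin replicate 1, at 0.77.

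Kcnj6 rested on few reads, 47 to 168 per library in Saline-Saline and 122 to 268 in LPS-Heroin. The values were 3.36, 1.98, 1.05 and 3.18 FPKM in Saline-Saline and 5.63, 4.59, 2.79 and 3.62 FPKM in LPS-Heroin, and the ranges overlapped. On the log2 scale the difference was 0.85 with an SE of 0.36 (limma adjusted p = 0.430; exact permutation p = 0.114). It ceased to be a DEG when all 6 groups were fitted together and without any 1 of Saline-Saline replicates 2 and 3 and LPS-Heroin replicates 1, 2 and 4, with log2 fold changes of 0.52 to 0.90, so that the call for Kcnj6 was the least stable of the 5.

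Kcnj4, the Kir2.3 gene and the leading Kir2 transcript of this tissue, measured 33.2, 43.1, 47.3 and 41.5 FPKM in Saline-Saline and 53.9, 61.1, 53.3 and 56.2 FPKM in LPS-Heroin. Every LPS-Heroin value lay above every Saline-Saline value. This difference was 0.45 on the log2 scale with an SE of 0.10 (limma adjusted p = 0.198; exact permutation p = 0.029). Without Saline-Saline replicate 1, the library with choroid plexus markers and the lowest Kcnj4 of its group, the log2 fold change was 0.35, below the fold limit, and 4 of the 9 members remained DEGs. The other Kir2 genes gave log2 fold changes of 0.15 with an SE of 0.13 (Kcnj12) and -0.01 with an SE of 0.13 (Kcnj2) and were not DEGs.

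Kcnj16, the Kir5.1 gene, showed the widest difference of any member. It measured 14.8, 5.90, 12 and 7.67 FPKM in Saline-Saline and 2.38, 1.5, 3.49 and 5.74 FPKM in LPS-Heroin, and no LPS-Heroin value reached the lowest Saline-Saline value. The log2 fold change was -1.67 with an SE of 0.41 (limma adjusted p = 0.214; exact permutation p = 0.029), and it ran from -1.98 to -1.36 with each library left out. Its glial partner Kcnj10 measured 29.1 ± 2.39 FPKM in Saline-Saline and 25.1 ± 6.02 FPKM in LPS-Heroin (SD, n = 4), a log2 fold change of -0.24 with an SE of 0.16, and was not a DEG, although without LPS-Heroin replicate 2 it was one at -0.38 (limma adjusted p = 0.461). Kcnj11 gave 0.18 with an SE of 0.15. In all, 3 of the 9 members (Kcnj4, Kcnj9 and Kcnj16) had groups that did not overlap, as did 6.86% of all genes tested.

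**Figure D2:**
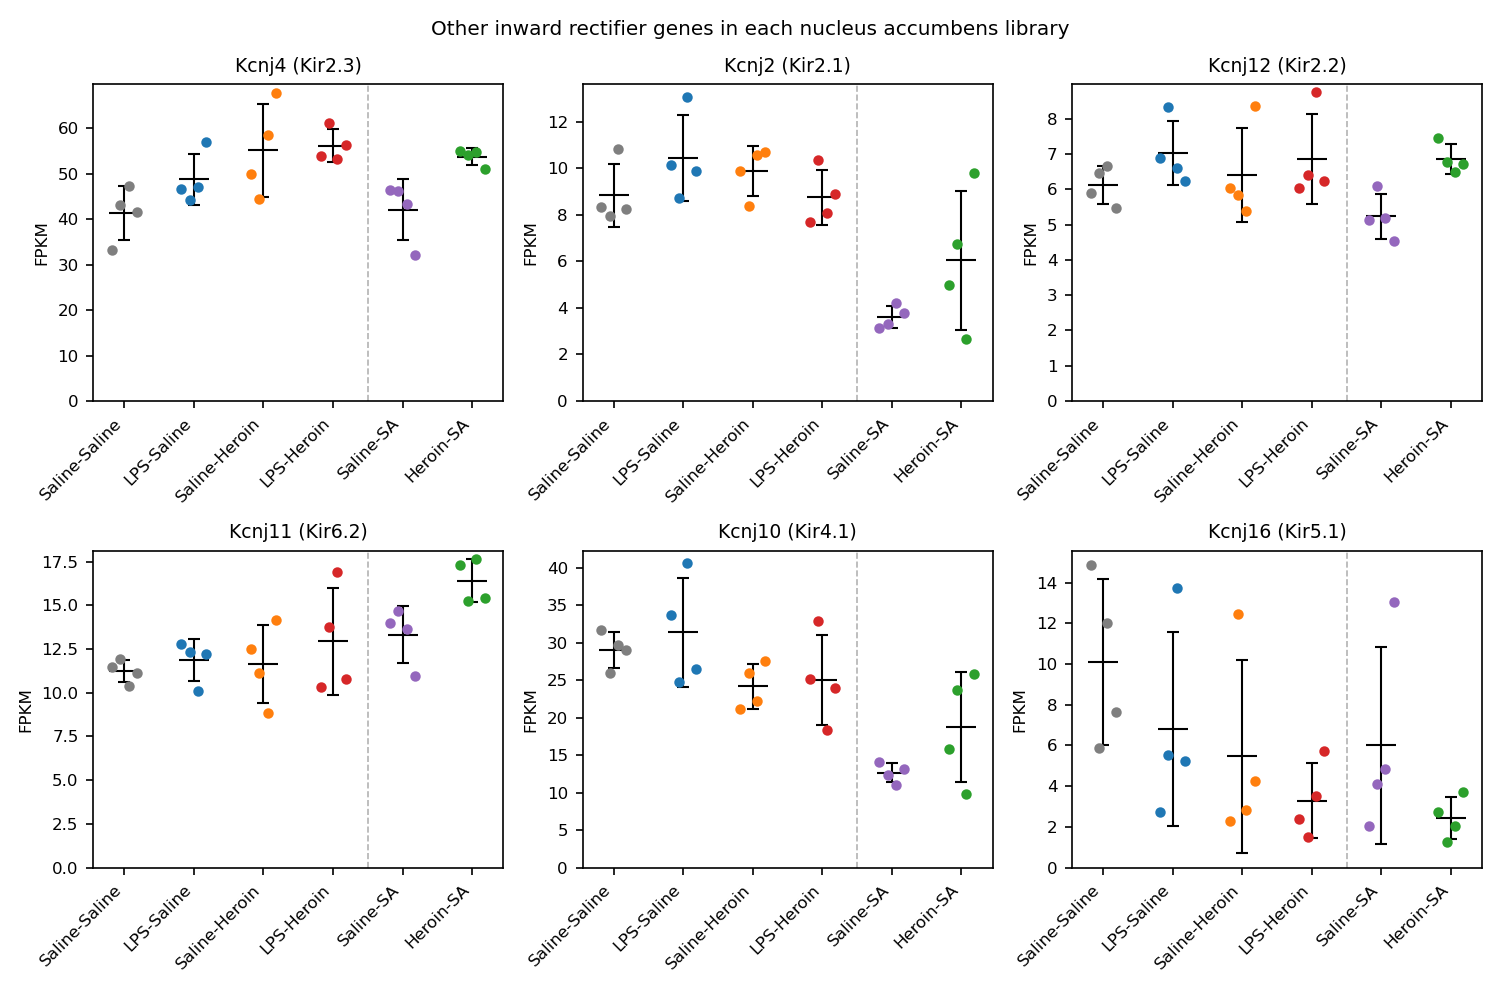
FPKM of the other 6 inward rectifier genes in each library (points) by treatment group, with the mean and SD of 4 libraries (black bars) and a dashed line between the 2 experiments. Kcnj4 in LPS-Heroin, 53.3 to 61.1 FPKM, lies above Saline-Saline, 33.2 to 47.3 FPKM, Kcnj16 varies from 1.25 to 14.8 FPKM over the 24 libraries, and Kcnj10 and Kcnj2 are lower in Saline-SA than in Saline-Saline.

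The comparisons of LPS-Saline and Saline-Heroin with Saline-Saline ask how each treatment on its own differed from saline, and both share their control libraries with the comparison above. After LPS alone, 0 of the 9 members were DEGs where 2.37% of genes were, and 0 had an unadjusted p of at most 0.05 in limma where 6.63% of genes did. The GIRK genes gave log2 fold changes of 0.37 with an SE of 0.44 (Kcnj3), 0.54 with an SE of 0.37 (Kcnj6) and 0.35 with an SE of 0.21 (Kcnj9), and Kcnj16 gave -0.71 with an SE of 0.46. LPS-Saline replicate 3 stood apart: it held 4.83 FPKM of Kcnj3 against 12.7 to 17.0 in the other 3, 17.2 FPKM of Kcnj9 against 25.7 to 36.1, and 13.7 FPKM of Kcnj16 against 2.72 to 5.55. Without it, Kcnj9 (log2 fold change 0.54, limma adjusted p = 0.472) and Kcnj16 (-1.12, limma adjusted p = 0.488) were DEGs and the count over all genes rose from 358 to 625.

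After heroin alone, Kcnj4 was the 1 DEG among the 9 members, where 3.07% of genes were DEGs. Its Saline-Heroin values were 49.97, 44.4, 58.4 and 67.8 FPKM, of which the second lay within the Saline-Saline range. The log2 fold change was 0.41 with an SE of 0.15 (limma adjusted p = 0.75; exact permutation p = 0.0571), and the call was lost without Saline-Saline replicate 1 (0.31), Saline-Heroin replicate 3 (0.38) or Saline-Heroin replicate 4 (0.31). Kcnj10 gave -0.27 with an SE of 0.10, under the fold limit. Kcnj3 gave 0.62 with an SE of 0.32 and Kcnj16 gave -1.12 with an SE of 0.51, neither of them a DEG, although Kcnj3 was one without Saline-Saline replicate 4 (0.87) and Kcnj16 without Saline-Saline replicate 2 (-1.34). Saline-Heroin replicate 2 held 12.5 FPKM of Kcnj16 against 2.27 to 4.24 in the other 3, and without it Kcnj16 was a DEG at -1.62 (limma adjusted p = 0.259) and Kcnj9 at 0.38 (limma adjusted p = 0.470), while the count over all genes rose from 465 to 727.

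**Figure D3:**
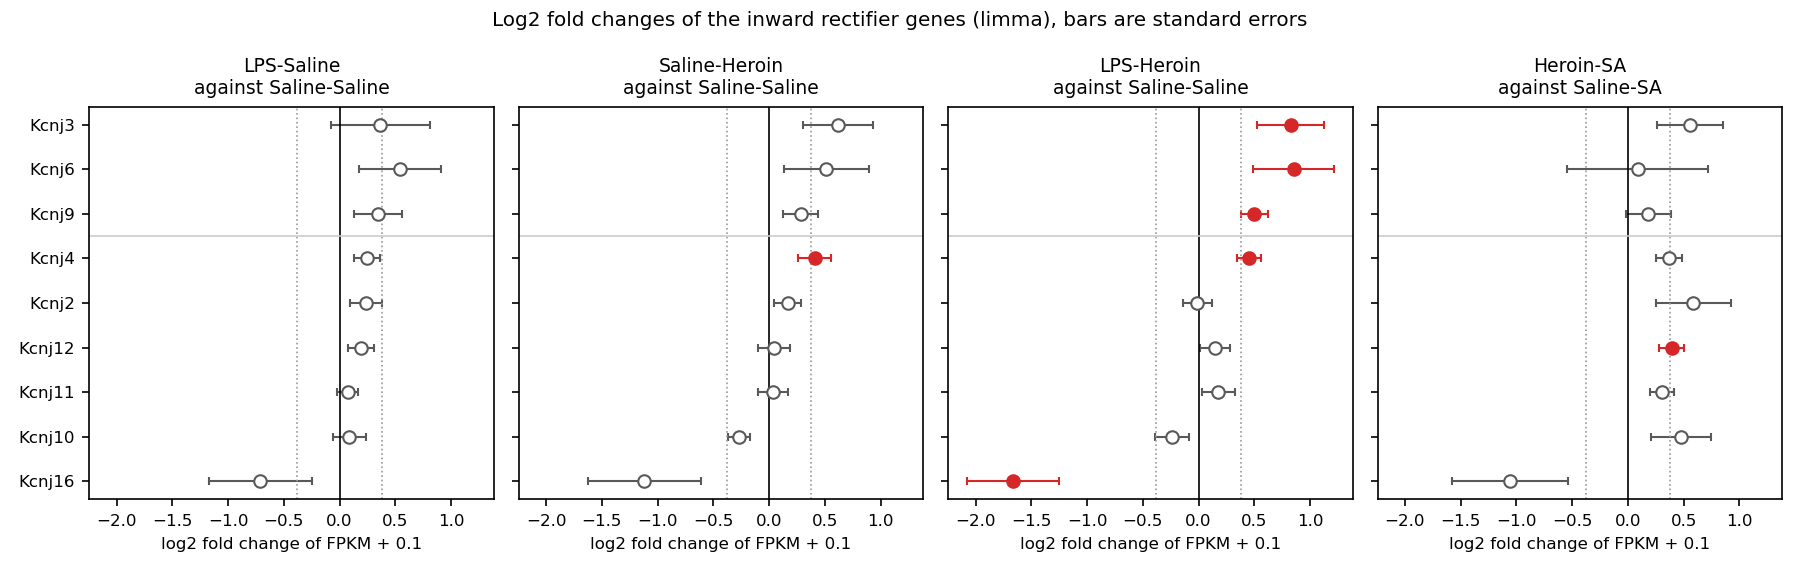
Log2 fold changes of the 9 genes (points) with standard errors (bars) in the 3 comparisons against Saline-Saline and in Heroin-SA against Saline-SA, from limma on log2(FPKM + 0.1). Filled red points are DEGs, dotted lines mark the 1.3-fold limit in either direction, and the grey line parts the GIRK genes from the others; Kcnj16 is the only member left of 0 in all 4 panels, and it is a DEG only in LPS-Heroin against Saline-Saline.

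LPS-Heroin against LPS-Saline, the effect of heroin in rats with an LPS history, gave 0 DEGs among the 9 members where 2.29% of genes were DEGs; 1 member, Kcnj4, had an unadjusted limma p of at most 0.05, as did 4.6% of genes, at a log2 fold change of 0.21 with an SE of 0.09 (unadjusted p = 0.0397). Without LPS-Saline replicate 1 or LPS-Heroin replicate 4, Kcnj16 was a DEG of that comparison (-1.31 and -1.27), and without LPS-Heroin replicate 2 Kcnj10 was (-0.47). LPS-Heroin against Saline-Heroin, the effect of the history in heroin rats, gave 0 DEGs among the 9 members where 2.2% of genes were DEGs, and 0 with an unadjusted limma p of at most 0.05 where 4.21% of genes had one. In the 16 injection libraries together, the heroin main effect made Kcnj3 (log2 fold change 0.54 with an SE of 0.25, limma adjusted p = 0.608) and Kcnj16 (-1.04 with an SE of 0.39, limma adjusted p = 0.578) DEGs, 2 of 9 members where 2.46% of genes were. Kcnj16 remained a DEG in all 16 fits that left out 1 library, with log2 fold changes of -1.29 to -0.83, whereas Kcnj3 did in 5 of the 16. For the same effect, 3 of 9 cortical glutamatergic markers were DEGs, all higher (median log2 fold change 0.51), and 4 of 9 septal and ventral forebrain markers (median -0.30) and 7 of 9 activity genes (median -0.64) were DEGs, all lower; their part in the result was not tested. Kcnj4 (0.31 with an SE of 0.09, unadjusted p = 0.0036) and Kcnj10 (-0.30 with an SE of 0.12, unadjusted p = 0.0254) stayed below the fold limit. The LPS main effect gave 0 member DEGs where 1.77% of genes were DEGs, 0 with an unadjusted limma p of at most 0.05 where 6.67% of genes had one, and 3 DEGs (Kcnj3, Kcnj6 and Kcnj16) without LPS-Saline replicate 3.

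The LPS by heroin interaction asks whether both treatments together differ from the sum of each. It made 1 member a DEG, Kcnj2, where 2.31% of genes were. Kcnj2 averaged 8.83 ± 1.34 FPKM in Saline-Saline and 8.75 ± 1.18 FPKM in LPS-Heroin, against 10.5 ± 1.86 FPKM after LPS alone and 9.89 ± 1.06 FPKM after heroin alone (SD, n = 4 each), so each treatment alone lay above the control mean and both together did not. The interaction was -0.41 with an SE of 0.19 (limma adjusted p = 0.992), and it stayed past the thresholds in 4 of the 16 fits that left out 1 library. The GIRK genes gave interactions of -0.15, -0.20 and -0.13 for Kcnj3, Kcnj6 and Kcnj9, each smaller than its SE of 0.50, 0.50 and 0.26.

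Self-administered heroin was compared with self-administered saline in separate rats. There, 8 of the 9 members had a log2 fold change above 0, with a median of 0.37 against 0.01 over all genes, and 1 member was a DEG where 5.45% of genes were. That gene was Kcnj12, the Kir2.2 gene. It measured 5.12, 6.08, 5.19 and 4.53 FPKM in Saline-SA and 7.46, 6.78, 6.50 and 6.70 FPKM in Heroin-SA, without overlap. The log2 fold change was 0.39 with an SE of 0.11 (limma adjusted p = 0.344; exact permutation p = 0.029), just past the fold limit, and it fell below the limit with a pseudocount of 1 (0.34), with equal medians (0.37) and without Saline-SA replicate 4 (0.33) or Heroin-SA replicate 1 (0.35).

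Kcnj4 and Kcnj11 also did not overlap between the self-administration groups, which makes 3 of 9 members where 6.8% of genes did not overlap. Kcnj4 measured 46.4, 46.3, 43.2 and 32.2 FPKM in Saline-SA and 54.9, 54.1, 54.7 and 50.9 FPKM in Heroin-SA, and Kcnj11, the pore of ATP-sensitive channels, measured 14, 14.7, 13.6 and 10.9 FPKM in Saline-SA and 17.3, 15.2, 17.7 and 15.4 FPKM in Heroin-SA. Their log2 fold changes, 0.37 with an SE of 0.115 for Kcnj4 and 0.31 with an SE of 0.11 for Kcnj11, lay below the fold limit, with unadjusted p of 0.0109 and 0.0185 (limma adjusted p = 0.346 and 0.364). Kcnj4 passed the limit in 4 of the 8 fits that left out 1 library, without Saline-SA replicate 1 (0.42), 2 (0.42) or 3 (0.39) or Heroin-SA replicate 4 (0.39). Saline-SA replicate 4 was the lowest of its group in Kcnj4, Kcnj11 and Kcnj12 and the highest in Kcnj16.

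The GIRK genes gave 0 DEGs between the self-administration groups, where 5.45% of genes were DEGs, and 0 had an unadjusted limma p of at most 0.05 where 11.5% of genes had one. Kcnj3 measured 5.66, 5.81, 2.71 and 5.82 FPKM in Saline-SA and 7.19, 9.33, 8.27 and 4.48 FPKM in Heroin-SA, with a log2 fold change of 0.55 and an SE of 0.30 (limma adjusted p = 0.496). Heroin-SA replicate 4 was the only library of its group within the Saline-SA range, and without it Kcnj3 was a DEG at 0.77 (limma adjusted p = 0.455). Kcnj6 rested on few reads, with 0.164 to 1.20 FPKM and 7 to 61 reads in Saline-SA and 0.300 to 1.65 FPKM and 14 to 74 reads in Heroin-SA, and its log2 fold change of 0.09 had an SE of 0.63. Kcnj16 gave -1.06 with an SE of 0.52 (limma adjusted p = 0.475), and its groups overlapped; it was a DEG without Saline-SA replicate 1 (-1.46) or Heroin-SA replicate 4 (-1.29).

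Kcnj10 was the 1 DEG among the 9 members in the contrast of the heroin differences, self-administered minus injected, where 4.38% of genes were DEGs. Its means were 24.2 ± 3.01 FPKM in Saline-Heroin against 29.1 ± 2.39 in Saline-Saline, and 18.8 ± 7.36 FPKM in Heroin-SA against 12.7 ± 1.30 in Saline-SA (SD, n = 4 each). The difference of the differences was 0.74 with an SE of 0.31 (limma adjusted p = 0.740), and 10 of the 16 fits that left out 1 library kept it past the thresholds. The Heroin-SA values, 15.8, 23.7, 9.86 and 25.9 FPKM, spread on both sides of the Saline-SA range. Kcnj2 followed the same libraries, with 4.97, 6.74, 2.66 and 9.79 FPKM, and without Heroin-SA replicate 3 both were DEGs of Heroin-SA against Saline-SA, Kcnj2 at 0.92 and Kcnj10 at 0.75 (limma adjusted p = 0.205 for each). In the contrast of the heroin differences, 5 members lay above 0 and 4 below. Kcnj2 gave 0.42 with an SE of 0.39 and was a DEG without Heroin-SA replicate 3 (0.76). Kcnj12 gave 0.34 with an SE of 0.18 and was a DEG without Saline-Heroin replicate 4 (0.48) or Saline-SA replicate 2 (0.42).

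The 2 control groups differed in several of these genes, but they came from separate experiments, which the labels do not allow to be told apart from the handling of the rats or libraries. Kcnj2 averaged 8.83 FPKM in Saline-Saline and 3.62 in Saline-SA, 2.44-fold lower, and Kcnj10 averaged 29.1 and 12.7 FPKM, 2.29-fold lower, both without overlap. The share of all genes that did not overlap between these 2 control groups was not computed. Kcnj6 was 2.71-fold lower and Kcnj3 1.86-fold lower in Saline-SA, with overlapping ranges. Kcnj4, at 41.3 and 42.0 FPKM, was at nearly the same mean level in both. No test across the experiments was made for these levels.

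**Figure D4:**
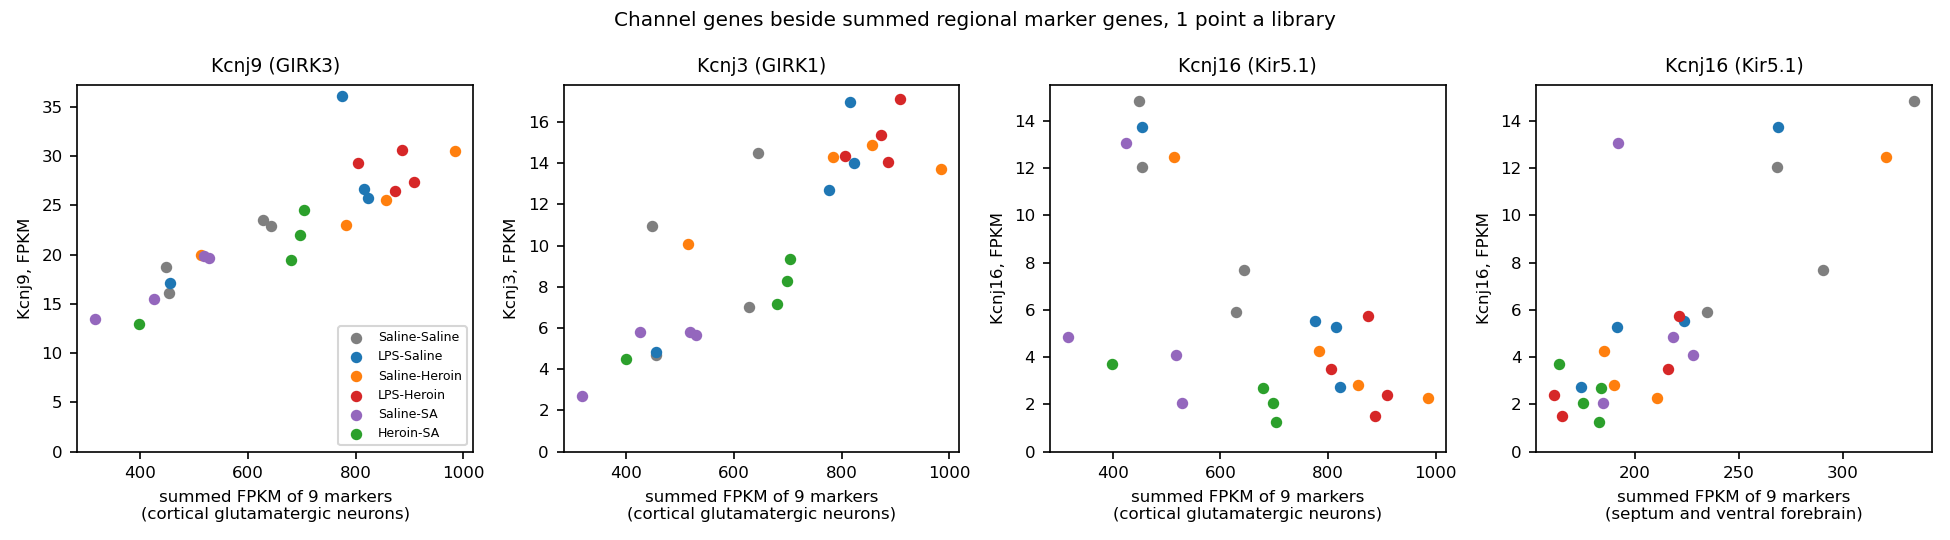
FPKM of Kcnj9, Kcnj3 and Kcnj16 (vertical axes) against the summed FPKM of 9 cortical glutamatergic markers, and Kcnj16 against 9 septal and ventral forebrain markers (horizontal axes), with 1 point a library coloured by group. Kcnj9 runs from 12.9 to 36.1 FPKM and climbs with the cortical sum across the groups, while the 5 libraries with the highest Kcnj16 have cortical sums of at most 513.4 FPKM.

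Markers of neighbouring regions moved with these genes. In LPS-Heroin against Saline-Saline, 7 of the 9 measured cortical glutamatergic markers were DEGs, all higher, where 5.43% of genes were DEGs. The 9 markers had a median log2 fold change of 1.05 against 0.00 over all genes. Their sums ran from 805.3 to 908.7 FPKM in LPS-Heroin and from 448.2 to 643.7 FPKM in Saline-Saline, and no marker was at 0 in a group. The vesicular glutamate transporter gene Slc17a7 averaged 333.2 and 158.1 FPKM, a log2 fold change of 1.22 with an SE of 0.34 (limma adjusted p = 0.231), and the cortical transcription factor gene Tbr1 averaged 25.9 and 12.6 FPKM (1.13 with an SE of 0.27, limma adjusted p = 0.199). Of 9 septal and ventral forebrain markers, 4 were DEGs, all lower, with a median log2 fold change of -1.08 over the 9 and sums of 161.0 to 221.2 FPKM in LPS-Heroin against 234.8 to 334.4 FPKM in Saline-Saline. None of the 12 medium spiny neuron markers or the 12 astrocyte markers was a DEG there, with median log2 fold changes of 0.10 and -0.11. Of 4 cholinergic interneuron markers, 1 was a DEG, lower, with a median of -0.64 over the 4. That gene was Lhx8, which is on both the cholinergic and the septal list and is also counted among the septal DEGs.

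Within groups, the same libraries were high or low. Deviations of log2(FPKM + 0.1) from the group means correlated over the 24 libraries between the cortical sum and Kcnj9 at r = 0.88 (Spearman 0.82, and 0.80 without the 2 libraries farthest from the median of the sum), Kcnj3 at 0.77, Kcnj6 at 0.69 and Kcnj16 at -0.73. Spearman's correlations were 0.62 for Kcnj3, 0.56 for Kcnj6 and -0.81 for Kcnj16, and r without the 2 farthest libraries was 0.65, 0.60 and -0.68. For Kcnj9 r was 0.83 within the 16 injection libraries and 0.96 within the 8 self-administration libraries. For Kcnj3, Kcnj6 and Kcnj16 it was 0.70, 0.55 and -0.85 in the injection libraries and 0.92, 0.85 and -0.52 in the self-administration libraries. Kcnj16 correlated with the septal sum at 0.87 in the injection libraries and at -0.16 in the self-administration libraries, and with the astrocyte sum at 0.74 and the cholinergic sum at 0.72 over all 24. With the astrocyte sum, Kcnj9 gave -0.72 over all 24. Kcnj10 gave 0.27 with that sum, at 0.63 in the injection libraries and -0.04 in the self-administration libraries. The septal and cholinergic sums share Lhx8. Kcnj4 correlated with the medium spiny neuron sum at 0.58, while Kcnj3 and Kcnj6 gave -0.71 and -0.70. With the septal sum, Kcnj4 gave -0.65 in the injection libraries and 0.41 in the self-administration libraries. All points of such a correlation share their library, its depth and its dissection, so these are descriptions without a p. The part of regional markers in the differences of Kcnj3, Kcnj4, Kcnj6, Kcnj9 and Kcnj16 was not tested.

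In Heroin-SA against Saline-SA, 0 of the 9 cortical markers were DEGs, with a median log2 fold change of 0.45 over the 9, and sums of 398.4 to 704.0 FPKM against 316.5 to 528.5 FPKM. There 2 of the 4 cholinergic markers, including Lhx8, and 6 of 9 activity genes were DEGs, all lower, where 5.45% of genes were DEGs. Heroin-SA replicate 4, lowest of its group in Kcnj3, Kcnj6 and Kcnj9, had the cortical sum of 398.4 FPKM, and the other 3 had 679.3 to 704.0 FPKM. In the injection experiment, LPS-Saline replicate 3 (455.2 FPKM against 775.4 to 823.1 in the rest of its group) and Saline-Heroin replicate 2 (513.4 against 782.8 to 985.2) were the libraries of their groups with the lowest cortical sum, the lowest Kcnj9 and the highest Kcnj16.

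Some members correlated with each other from library to library, most of them less strongly by rank. Within-group deviations correlated over 24 libraries at r = 0.79 for Kcnj3 with Kcnj6, 0.72 for Kcnj3 with Kcnj9 and 0.68 for Kcnj6 with Kcnj9. Outside the GIRK genes, Kcnj2 with Kcnj10 gave 0.78 and Kcnj12 with Kcnj11 gave 0.72, although neither pair is adjacent in the genome. Spearman's correlations of these pairs were, in the same order, 0.76, 0.52, 0.52, 0.52 and 0.62. Without the 2 libraries farthest from the median of the first gene named, r was 0.79, 0.59, 0.56, 0.52 and 0.54. The adjacent pairs did not follow each other: Kcnj9 with Kcnj10 gave -0.42 and Kcnj2 with Kcnj16 gave 0.15. Kcnj10 and Kcnj16, whose products assemble into shared channels, gave 0.09, and Kcnj9 with Kcnj16 gave the lowest value of the 36 pairs, -0.67.

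**Figure D5:**
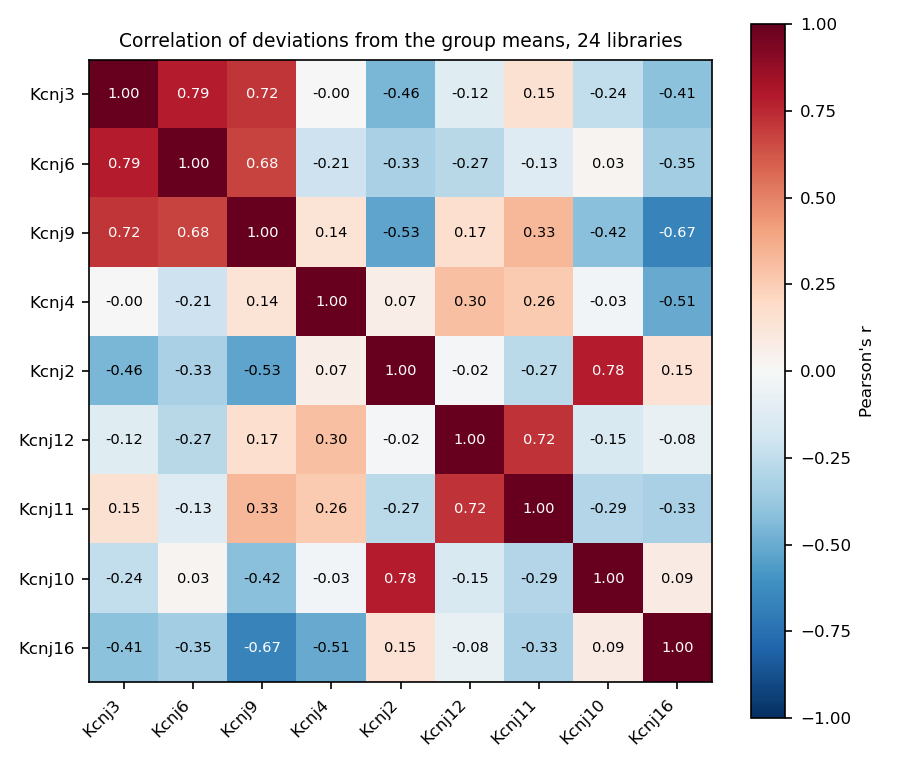
Pearson's r between the 9 genes (rows and columns), computed over 24 libraries from deviations of log2(FPKM + 0.1) from the group means, with red for positive and blue for negative values. The GIRK genes form a block of 0.68 to 0.79, and Kcnj2 with Kcnj10 (0.78) and Kcnj12 with Kcnj11 (0.72) form the other high pairs. Spearman's correlations of these pairs, not drawn, ran from 0.52 to 0.76.

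The genes most like each member by the same measure, among 11911 genes with a mean of at least 1 FPKM, were Nptx1 (r = 0.94), Khdrbs3 (0.93) and Stx1a (0.92) for Kcnj9, Nptx1 being itself on the cortical list. Kcnj3 was followed most closely by Ptpn3 (0.92) and Yjefn3 (0.91), and Kcnj6 by Ppm1e (0.90), Dlgap1 (0.88) and Ipo5 (0.85). For Kcnj16 they were Grin2d (0.90), the GABA transporter gene Slc6a11 (0.88) and Ampd2 (0.88), and for Kcnj10 Stox2 (0.93), Fam63b (0.93) and Ston2 (0.92). Kcnj2 was most like Zswim5 (0.90), Lrp6 (0.89) and Xiap (0.89), and Kcnj4 most like the protein phosphatase 1 gene Ppp1ca (0.85), Nkiras1 (0.84) and Rcan1 (0.83). Kcnj11 was followed by Mrpl2 (0.85), Bnip3 (0.81) and Tpgs1 (0.81) and Kcnj12 by Ecsit (0.74), Trnp1 (0.73) and Kif5a (0.72), the weakest likeness of the 9. Some of these ranks were not stable. In the 16 injection libraries alone, r was 0.59 for Kcnj2 with Xiap and 0.60 for Kcnj6 with Ipo5. Spearman's correlation of Kcnj12 with Ecsit was 0.61.

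Of 25 receptor, G protein and regulator genes that act on GIRK channels, 3 were DEGs in LPS-Heroin against Saline-Saline, all higher, where 5.43% of all genes were, with a median log2 fold change of 0.09 over the 25. The GABA-B receptor subunit gene Gabbr2 averaged 37.8 ± 2.995 against 27.7 ± 3.26 FPKM (log2 fold change 0.45 with an SE of 0.10, limma adjusted p = 0.18), and Rgs4, which speeds the closing of GIRK channels after receptor activation, averaged 89.5 ± 11.5 against 59.9 ± 9.71 FPKM (0.58 with an SE of 0.13, limma adjusted p = 0.186), both without overlap. The delta opioid receptor gene Oprd1 averaged 5.40 ± 1.77 against 3.13 ± 1.51 FPKM (0.85 with an SE of 0.37, limma adjusted p = 0.442), with overlap. The mu opioid receptor gene Oprm1, named for its role after its values were seen, averaged 0.697 ± 0.171 against 0.749 ± 0.157 FPKM (log2 fold change -0.10 with an SE of 0.30). The same list gave 0 DEGs after LPS or heroin alone, where 2.37% and 3.07% of genes were DEGs. For the LPS main effect 1 was higher, Oprd1, at 0.56 with an SE of 0.22 (limma adjusted p = 0.730), where 1.77% of genes were DEGs. In the interaction 2 were DEGs, both with a negative value, where 2.31% of genes were DEGs. These were Gpr158 (-0.47 with an SE of 0.18) and Rgs7bp (-0.50 with an SE of 0.21, limma adjusted p = 0.992 for each). Against Saline-Saline, Gpr158 gave 0.36 after LPS alone, 0.28 after heroin alone and 0.17 in LPS-Heroin. Rgs7bp gave 0.36, 0.31 and 0.17 in the same order, and all of these values lay below the fold limit. In Heroin-SA against Saline-SA 1 of 24 tested was a DEG, where 5.45% of genes were. That gene was Rgs4, higher by 0.40 with an SE of 0.15 (limma adjusted p = 0.376).

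The 14 measured partners of the other channels included the sulfonylurea receptor genes Abcc8 and Abcc9 and scaffold genes of the Dlg and Lin7 families. In LPS-Heroin against Saline-Saline 0 of them were DEGs, where 5.43% of genes were. In Heroin-SA against Saline-SA 1 was, where 5.45% of genes were. That gene was Lin7a, at a log2 fold change of 0.71 with an SE of 0.29 (limma adjusted p = 0.410). Of 11 measured potassium channel genes of other families, 0 were DEGs in LPS-Heroin against Saline-Saline, with a median log2 fold change of 0.17. In Heroin-SA against Saline-SA 3 were, all higher, where 5.45% of genes were DEGs. Among them were Kcna2 (0.92 with an SE of 0.36, limma adjusted p = 0.400) and Kcnma1 (0.39 with an SE of 0.16, limma adjusted p = 0.410).

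The table holds 6 further Kcnj genes. Kcnj5, the fourth GIRK subunit, was scarce, with 29 to 104 reads per library. It measured 1.07, 1.43, 1.17 and 1.01 FPKM in Saline-Saline, 0.404, 0.832, 0.550 and 0.916 FPKM in Saline-Heroin and 0.751, 0.774, 0.886 and 0.594 FPKM in LPS-Heroin. Every LPS-Heroin value lay below every Saline-Saline value, and 6.86% of genes tested likewise did not overlap in that comparison. Saline-Heroin was set against the same Saline-Saline libraries, so its values are not separate evidence. LPS-Saline measured 1.03, 1.12, 1.38 and 0.665 FPKM, the last within the range of the heroin values. Against Saline-Saline Kcnj5 was a DEG after heroin alone (-0.75 with an SE of 0.30) and after LPS and heroin (-0.58 with an SE of 0.24), calls that held in 3 and 2 of the 8 fits that left out 1 library (limma adjusted p = 0.75 and 0.420). Both calls were lost with the replicate number as a block, and the second also with quantile normalization and with a pseudocount of 1, at -0.31. The heroin main effect was -0.58 with an SE of 0.20 (limma adjusted p = 0.549) and stayed past the thresholds in all 16 fits that left out 1 library, but not with a pseudocount of 1, at -0.30. In Heroin-SA against Saline-SA the log2 fold change of Kcnj5 was -0.07 with an SE of 0.30, not a DEG. Kcnj8 (Kir6.1 of mural cells), Kcnj13 (Kir7.1 of choroid plexus) and Kcnj14 (Kir2.4) were not DEGs in any comparison between 2 groups in which they were tested, and Kcnj1 and Kcnj15 were too low to be tested. Kcnj8 and Kcnj14 did not overlap between the experiments, with 0.886 to 1.999 FPKM and 6.04 to 9.72 FPKM in the 16 injection libraries against 2.05 to 3.63 FPKM and 12.2 to 18.5 FPKM in the 8 self-administration libraries. The share of all genes that did so was not computed.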

How the data were processed

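RNA of the NAc was sequenced from poly(A)-selected directional libraries. Per the submitters' processing notes, reads were trimmed with fastp, aligned to rn6 with HISAT2 and counted with featureCounts; the versions, the annotation release and the strand setting are not given in the sources used here. The authors deposited FPKM values for 32545 genes in 24 libraries, and the groups were taken from the labels. In all libraries 100% of the values gave whole reads (within 0.01 of a whole number), which served for depth and for 1 alternative.

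For each comparison, log2(FPKM + 0.1) of the 8 libraries was fitted with limma 3.58.1 in R 4.3.3 (limma-trend) over genes with a mean of at least 0.5 FPKM. The 16 injection libraries were fitted together for main effects and the interaction, and the 16 libraries of Saline-Saline, Saline-Heroin, Saline-SA and Heroin-SA for the difference between the heroin effects. Adjusted p-values are Benjamini-Hochberg values over all genes tested. Tests are two-sided. The limma p-values weigh a difference against the spread among the 4 libraries of each group, with variances moderated over all genes tested. The fit was tested on simulated data in which 200 genes were changed. The simulation gave every gene the same added spread among libraries and no variation of dissection, so it does not cover genes as scattered as Kcnj16.

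The genes, lists and tests were chosen with earlier results of these data known. Named were the 9 members, the other Kcnj genes, at most 4 DEGs per list and comparison by smallest p (fewer are given in the text for some lists), and the 3 genes most correlated with each member. Some genes that this rule names are not reported here. Correlations were computed in Python 3.11.15. Alternatives were other pseudocounts, filters and normalizations, 1 fit of all groups, robust moderation, limma-voom on recovered reads, the replicate number as a block, other thresholds and leaving out each library.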

Additional observations from a re-analysis of the deposited data

Results flagged for a closer look

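In 54 sets of 4 libraries (9 genes in 6 groups), 5 held a library whose gap to the nearest other exceeded Dixon's critical value, a limit that chance meets in about 1 in 20 groups. Kcnj3 and Kcnj6 were both far below the rest in Saline-SA replicate 3, at 2.71 FPKM against 5.66 to 5.82 and at 0.164 FPKM against 1.04 to 1.20, and that library had the lowest cortical marker sum of all 24, 316.5 FPKM. Kcnj6 was at 2.02 FPKM in LPS-Saline replicate 3 against 3.67 to 3.83. Kcnj2 was at 10.8 FPKM in Saline-Saline replicate 3 against 7.94 to 8.32, and Kcnj12 at 8.76 FPKM in LPS-Heroin replicate 3 against 6.04 to 6.39.

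Effects that differed between groups by their own test, at unadjusted thresholds, were the LPS by heroin interaction of Kcnj2, at -0.41 on the log2 scale (limma adjusted p = 0.992), and the self-administered minus injected heroin difference of Kcnj10, at 0.74 (limma adjusted p = 0.740). The cause of each was not tested.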

How the results depend on the processing

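No called fold change of a member changed sign in any alternative. Of 110 values of called members under settings other than a left-out library, 98 stayed past the thresholds and 12 did not (Kcnj6 in 1, Kcnj12 in 4, Kcnj3 in 3 and Kcnj2 in 4 settings), and 42 of 120 did not when 1 library was left out. Over all genes, requiring an adjusted p below 0.05 left 0 DEGs in each of the 10 comparisons, and so 0 among the members. Without a fold limit, DEGs numbered 1002 (LPS-Saline), 995 (Saline-Heroin) and 1704 (LPS-Heroin) against Saline-Saline, 693 in LPS-Heroin against LPS-Saline, 637 in LPS-Heroin against Saline-Heroin, 1725 in Heroin-SA against Saline-SA, 1226 for the heroin and 1008 for the LPS main effect and 607 for the interaction, in place of 358, 465, 822, 345, 332, 819, 372, 267 and 349; members then numbered 2 in Saline-Heroin against Saline-Saline, 1 in LPS-Heroin against LPS-Saline, 3 in Heroin-SA against Saline-SA and 4 for the heroin main effect. Without a filter on FPKM, DEGs numbered 582 in LPS-Saline against Saline-Saline, 548 in LPS-Heroin against LPS-Saline, 524 in LPS-Heroin against Saline-Heroin, 628 for the heroin and 516 for the LPS main effect and 565 for the interaction, genes with few reads being added. Member DEGs of Heroin-SA against Saline-SA numbered 3 with all groups in 1 fit (Kcnj2 and Kcnj10 added) and 0 with equal medians, quantile normalization, a pseudocount of 1 or limma-voom. Those of the heroin main effect numbered 1 without a filter, with quantile normalization and with robust moderation. Those of the interaction numbered 0 with all groups in 1 fit, equal medians, a pseudocount of 1 and limma-voom, and limma-voom gave 2 in Saline-Heroin against Saline-Saline (Kcnj16 added). The cause of these shifts was not tested.

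With 1 library left out, DEGs ran over all genes from 310 to 625 (LPS-Saline), 366 to 727 (Saline-Heroin) and 664 to 988 (LPS-Heroin) against Saline-Saline, 295 to 428 in LPS-Heroin against LPS-Saline, 301 to 446 in LPS-Heroin against Saline-Heroin, 645 to 1211 in Heroin-SA against Saline-SA, 304 to 492 for the heroin and 214 to 423 for the LPS main effect, 290 to 446 for the interaction and 542 to 1001 for the difference between heroin effects. Members ran, in the same order, from 0 to 2, 0 to 3, 3 to 5, 0 to 1, 0 to 0, 0 to 4, 1 to 2, 0 to 3, 0 to 1 and 0 to 2. The count over all genes moved by over 1.5 times without LPS-Saline replicate 3 (625 in LPS-Saline against Saline-Saline and 423 for the LPS main effect), Saline-Heroin replicate 2 (727) and Heroin-SA replicate 3 (1001).

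Replicate numbers did not pair the libraries: same-numbered libraries of groups compared correlated at -0.150 to 0.154 in their deviations, and 7 of 24 correlated best with their own number. With the replicate number as a block, Kcnj6 became a DEG of LPS-Saline and Kcnj16 one of LPS-Heroin against LPS-Saline (1 member each in place of 0), Heroin-SA against Saline-SA had 2 members in place of 1 (Kcnj16 added), and none of the 9 members was lost in any comparison, while Kcnj5, outside the 9, was lost against Saline-Saline in both Saline-Heroin and LPS-Heroin. Depth limited Kcnj6, Kcnj16 and Kcnj5 most, with as few as 7, 32 and 29 reads in a library.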
